A study of Mus musculus with 8 samples.

Results

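Axon guidance cues and receptors are the secreted and membrane-bound proteins through which a growing axon or a moving cell is attracted, repelled or held in place. The genes described here are the 37 of 5457 listed genes whose symbols place them among the class 3 to 7 semaphorins, plexins, neuropilins, netrins and their receptors, Robo receptors, ephrins and Eph receptors, fibronectin leucine rich transmembrane (Flrt) proteins, teneurins, repulsive guidance molecules (Rgm) with their receptor neogenin, or the cytosolic Dpysl proteins. By role they are 21 cues, 13 receptors and 3 mediators. The rule reads symbols and no values, but it was set with earlier results of these data known. RNA sequencing was done on 4 groups of 2 libraries each from cultured cells sorted from the hind limb skeletal muscle of adult C57BL/6 mice. Tw2_48 and Tw2_GM came from mice of the genotype Tw2-CreERT2/+;R26-tdTO+, and Pax7_48 and Pax7_GM from mice of the genotype Pax7-CreERT2/+;R26-tdTO+. In both genotypes tamoxifen, given as 3 treatments on alternate days, 10 days ahead of the harvest, lets Cre recombinase made from the Twist2 (Tw2) or the Pax7 locus switch on the red reporter tdTomato, and the red cells were sorted and plated. A group thus holds whatever cells had recombined, together with their descendants in culture, and not a single purified type. The labels of all groups describe a growth medium (Ham's F10 with 20% FBS) and a differentiation medium (high-glucose DMEM with 2% horse serum and bFGF), without saying which group was in which. GM is taken as the growth medium. The number 48 is given in hours only in the Tw2 titles, and neither the medium of the 48 cultures nor whether the 2 libraries of a group came from separate animals is stated. The p-values below therefore measure only the spread between libraries, which may be technical. Every listed gene differed at least 2-fold between Tw2_GM and another group in the authors' deposited table. Every gene that could be tested also had at least 10 CPM (reads scaled to library size) in at least 4 libraries. All shares are therefore relative to genes selected for such a difference and level. Genes outside that selection were not analysed here.

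As background, guidance cues work as ligand and receptor pairs. Class 3 semaphorins are secreted and are read by plexins, mostly with neuropilin as a co-receptor, while classes 4 to 7 are held on the membrane. Netrins are read by Unc5 receptors and neogenin, Slit proteins by Robo receptors, and ephrins by Eph receptor tyrosine kinases in a contact between cells that can signal in both directions. Teneurins and Flrt proteins bind latrophilins, and Flrt proteins also bind Unc5 receptors. Dpysl proteins, the collapsin response mediator proteins, lie downstream of semaphorin receptors and bind microtubules. In muscle, such cues are known from the patterning of motor nerves and vessels and from the migration and fusion of myoblasts.

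Levels are given as CPM, reads scaled to the size of the library. The authors deposited only the mean CPM of each group, and the 2 libraries behind each mean were recovered as whole reads. They are called the deeper and the shallower library of a group. Implied library sizes ran from 5.18 to 13.7 M reads, so that 3 reads, the upper limit that a count of 0 allows, came to 0.218 to 0.579 CPM (counting error only). The Pax7_GM libraries stood apart from each other, with an SD of their log2 ratio over the members of 0.44, against 0.20 to 0.21 in the other groups. Of 12 symbols of differentiated muscle markers 10 were listed, and 6 could be tested (Myog, Ckm, Tnnt3, Mef2c, Tmem8c and Gm7325). The other listed ones had no single solution in whole reads and are missing from the sums. The summed level of the 6 was 10161 and 10136 CPM in the Tw2_48 libraries, 8410 and 8605 in Pax7_48, 219 and 192 in Tw2_GM and 876 and 754 in Pax7_GM. All 6 rose at 48 in both lineages. Of 9 markers of satellite cells and myoblasts 6 could be tested, and in both lineages Pax7, Vcam1 and Sdc4 fell at 48 while Des, Cdh15 and Itga7 rose. Their sum was 5531 and 5470 CPM in the Tw2_48 libraries, 7878 and 8444 in Pax7_48, 2385 and 2347 in Tw2_GM and 3318 and 2779 in Pax7_GM. Pax7 itself, which marks satellite cells, was at 13.0 and 12.6 CPM in the Tw2_48 libraries, 9.58 and 9.95 in Pax7_48, 113 and 109 in Tw2_GM and 117 and 112 in Pax7_GM, and Twist2 was not analysed here.

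Markers of other cell types were listed in part, and some of them moved with the culture or the lineage. None of 9 endothelial markers was listed. From 8 markers of fibro-adipogenic progenitors, Col1a1 and Col1a2 summed to 8.88 and 44.4 CPM in the Tw2_48 libraries, 281 and 261 in Pax7_48, 7.15 and 5.67 in Tw2_GM and 437 and 400 in Pax7_GM. Col1a2, a collagen chain, made up most of the gap between the lineages, with a log2 fold change of −4.21 ± 0.44 at 48 and −6.51 ± 0.44 in GM. The 5 listed of 8 pericyte and smooth muscle markers (Rgs5, Cspg4, Acta2, Abcc9 and Notch3) summed to 8756 and 8352 CPM in the Tw2_48 libraries, 5288 and 5593 in Pax7_48, 688 and 730 in Tw2_GM and 890 and 789 in Pax7_GM. Nearly all of it was Acta2, a smooth muscle actin, while Rgs5 was at 0.51 and 0.21 CPM in the Tw2_48 libraries, 0 and 0 in Pax7_48, 56.3 and 62.1 in Tw2_GM and 11.4 and 18.9 in Pax7_GM. Of 6 immune markers Itgam alone was listed, at 22.8 and 18.1 CPM in the Tw2_48 libraries, 15.9 and 11.9 in Pax7_48, 0 and 0 in Tw2_GM and 0.54 and 0.58 in Pax7_GM. Erbb3 alone was listed among 10 markers of Schwann cells, at 580 and 541 CPM in the Tw2_48 libraries, 348 and 314 in Pax7_48, 9.45 and 8.94 in Tw2_GM and 23.4 and 23.0 in Pax7_GM. Tubb3 and Stmn2, listed from 7 neuronal markers, summed to 56.7 and 55.3 CPM in the Tw2_48 libraries, 18.5 and 23.2 in Pax7_48, 102 and 103 in Tw2_GM and 21.7 and 19.5 in Pax7_GM. The part of other cell types in the results below was not tested. In such bulk RNA, fewer cells of a type and less RNA per cell cannot be told apart.

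Promoter sequences from RefSeq (GRCm38.p6) were found for 32 of the 37 members. Those of Ntn1, Dpysl2, Dpysl3, Rgma and Sema3b are named only. The 250 bases before the start of 5 members are shown 5′ to 3′, as examples of the contrasts described below. Dpysl5 and Plxnb3 were highest at 48, Unc5b and Epha2 were highest in GM, and Flrt2 separated the lineages. Capitals mark CANNTG, the E-box core read by basic helix-loop-helix factors such as the myogenic factors and Twist2. The windows are chr5:30711314-30711563 (plus strand) for Dpysl5, chrX:73756853-73757102 (plus strand) for Plxnb3, chr10:60831582-60831831 (minus strand) for Unc5b, chr4:141300971-141301220 (plus strand) for Epha2 and chr12:95691976-95692225 (plus strand) for Flrt2.
Dpysl5: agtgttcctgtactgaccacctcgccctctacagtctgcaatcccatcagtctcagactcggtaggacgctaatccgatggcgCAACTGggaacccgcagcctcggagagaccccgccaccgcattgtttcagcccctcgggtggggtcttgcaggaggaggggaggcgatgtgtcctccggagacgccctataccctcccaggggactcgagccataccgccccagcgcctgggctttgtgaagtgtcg
Plxnb3: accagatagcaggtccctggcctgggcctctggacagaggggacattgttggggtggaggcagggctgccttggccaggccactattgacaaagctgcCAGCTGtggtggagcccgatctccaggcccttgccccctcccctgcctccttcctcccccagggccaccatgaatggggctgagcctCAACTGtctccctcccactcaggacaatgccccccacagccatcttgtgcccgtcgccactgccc
Unc5b: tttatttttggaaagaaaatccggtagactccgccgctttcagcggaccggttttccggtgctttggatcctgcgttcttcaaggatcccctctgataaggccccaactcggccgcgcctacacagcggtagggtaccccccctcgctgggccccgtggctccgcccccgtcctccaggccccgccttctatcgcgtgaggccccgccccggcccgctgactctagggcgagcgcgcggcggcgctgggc
Epha2: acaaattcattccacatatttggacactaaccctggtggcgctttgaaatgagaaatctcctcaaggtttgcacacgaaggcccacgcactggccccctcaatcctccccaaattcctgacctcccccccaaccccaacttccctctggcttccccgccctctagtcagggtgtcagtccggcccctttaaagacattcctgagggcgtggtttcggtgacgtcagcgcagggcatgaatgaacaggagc
Flrt2: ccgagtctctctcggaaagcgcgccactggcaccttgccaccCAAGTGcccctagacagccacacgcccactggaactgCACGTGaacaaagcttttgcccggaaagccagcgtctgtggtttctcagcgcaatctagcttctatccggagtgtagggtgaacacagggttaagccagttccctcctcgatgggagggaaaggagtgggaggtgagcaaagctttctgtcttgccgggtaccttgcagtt

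CANNTG reads the same on both strands. It stood 1 time in the Dpysl5 window, 2 times in those of Plxnb3 and Flrt2, and not at all in those of Unc5b and Epha2. At least 1 copy was found in 62.5% of the 32 member promoters and in 66.0% of all 27025 promoters of this length. Its variant CAGCTG, a core that also matches CANNTG, was in 9.38% of member promoters and 12.8% of all promoters. By direction, 70.0% of the 10 matched members that rose at 48 in both lineages held CANNTG, and 52.6% of the 19 that fell. The member promoters were rich in CG dinucleotides, with a median of 13.5 per window against 6 in all promoters. These are letter matches and say nothing of what binds there.

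**Figure D1:**
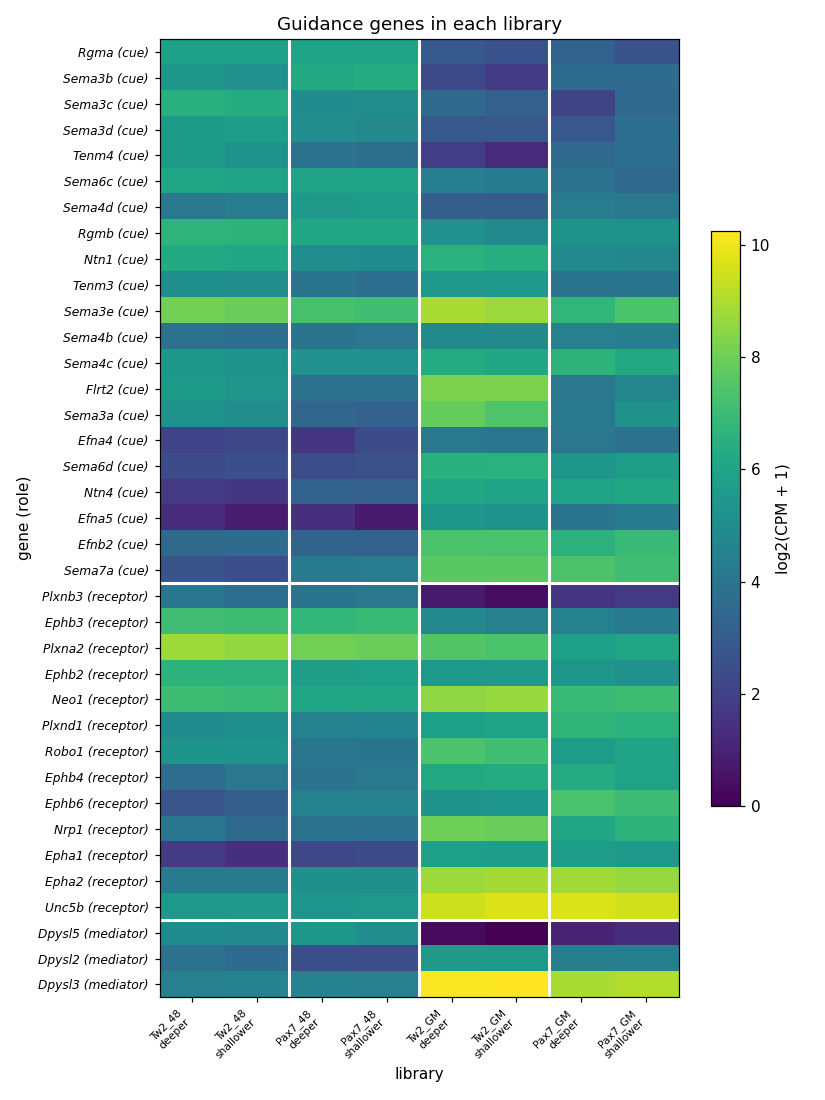
Heat map of log2(CPM + 1) for the 37 members (rows, grouped as cues, receptors and mediators) in the 8 libraries (columns, by group). The columns of the 48 cultures differ from those of GM across most rows, while the 2 libraries of a group look alike, with the widest gaps in Pax7_GM.

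Per kilobase of the longest transcript, receptors were more abundant than cues in GM. The median receptor stood at 15.97 CPM per kilobase in Tw2_GM and 14.9 in Pax7_GM, and the median cue at 9.82 in Tw2_GM and 4.47 in Pax7_GM. At 48 the receptor median was 4.60 in Tw2_48 and 4.89 in Pax7_48, and the cue median was 5.91 in Tw2_48 and 4.65 in Pax7_48, so the order was the other way round in Tw2_48. The most abundant receptor in GM was Unc5b, the repulsive netrin receptor, at 132 CPM per kilobase in each of the 2 lineages. Among cues, Sema3e led in Tw2_GM with 66.6 CPM per kilobase and the membrane-anchored Sema7a in Pax7_GM with 46.5. At 48 the leading receptors were Plxna2 in Tw2_48, with 37.2 CPM per kilobase, and Ephb3 in Pax7_48, with 24.7. The leading cues at 48 were Sema3e in Tw2_48 (37.1 CPM per kilobase) and Sema3b in Pax7_48 (22.9). The highest group mean lay in Tw2_GM for 21 members, in Pax7_GM for 3 (Sema4c, Ephb6 and Plxnd1), in Tw2_48 for 8 and in Pax7_48 for 5. The selection of the table on Tw2_GM bears on these counts.

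The first comparison set the 48 cultures against GM within each lineage. It divided the guidance genes into a set that fell and a smaller set that rose, and the division was shared by the lineages. Among receptors, Unc5b, Epha1, Epha2, Ephb4, Ephb6, Nrp1, Plxnd1, Robo1 and Neo1 fell in both lineages, while Plxna2, Plxnb3, Ephb2 and Ephb3 rose in both. Among cues, the 3 ephrins, Ntn4, Sema7a, Sema6d, Sema3a, Sema4b, Sema4c and Flrt2 fell in both lineages, while Sema3b, Sema3c, Sema3d, Sema4d, Sema6c, Rgma and Rgmb rose in both. Counted over the 37 members, 13 rose and 23 fell in Tw2 cells, where 84.1% of all tested genes were called (35.3% higher and 48.9% lower), and 12 rose and 21 fell in Pax7 cells, where 79.2% were called (38.8% higher and 40.5% lower). The median log2 fold change of the members was −1.07 in Tw2 cells and −0.89 in Pax7 cells, against −0.49 and 0.01 over all tested genes in the same 2 comparisons. Called in the same direction in both lineages were 12 members that rose (33.2% of all genes) and 21 that fell (39.4%), and no member was called in opposite directions (0.422%). The 4 left were Ntn1, Sema3e, Tenm3 and Tenm4. Of these calls 11 that rose and 18 that fell were also made in both lineages under size factors, under quantile normalization and with a trend in GC content and length removed. Dpysl5, Plxnb3 and Rgma reached 10 CPM only in the 48 libraries, and Efna4, Efna5, Epha1, Ntn4 and Sema6d only in those of GM. As tested genes had that level in at least 4 libraries, these members could be listed only by being high in both lineages of that culture. Their shared direction is therefore not a result.

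Eph receptors and their ligands gave some of the largest changes, and the A and B classes differed. Epha2, a receptor tyrosine kinase of the A class, was at 17.99 and 17.6 CPM in the Tw2_48 libraries, against 433 and 472 in Tw2_GM, and at 34.5 and 34.4 in Pax7_48, against 462 and 407 in Pax7_GM. The 48 and GM libraries lay far apart in both lineages. The log2 fold change was −4.59 ± 0.13 in Tw2 cells (SE, limma adjusted p = 2.12e-08) and −3.62 ± 0.13 in Pax7 cells (adjusted p = 2.16e-07). Each SE in the text rests on a spread pooled over the groups, with 2 libraries per group, although the Pax7_GM libraries differed more from each other. Epha1 was at 2.55 and 1.70 CPM in the Tw2_48 libraries and 3.57 and 4.19 in Pax7_48, against 53.7 and 50.8 in Tw2_GM and 50.9 and 46.3 in Pax7_GM. The changes of Epha1 were −4.10 ± 0.16 in Tw2 cells and −3.35 ± 0.16 in Pax7 cells. Exons of Epha1 overlap those of Zyx on the other strand, and the strand handling of the libraries is not stated, so its reads could be shared. The same holds for Efna4, Ephb4, Rgma, Sema4c, Tenm3 and Tenm4, and Nrp1 holds the microRNA gene Mir1903 on its own strand. The ligands of this class fell with them. Efna5, an ephrin tethered by a lipid anchor, was at 1.46 and 0.74 CPM in the Tw2_48 libraries and 1.69 and 0.65 in Pax7_48, against 42.1 and 37.5 in Tw2_GM and 14.5 and 17.6 in Pax7_GM. Efna4 was at 3.20 and 3.62 CPM in the Tw2_48 libraries and 2.07 and 4.06 in Pax7_48, against 16.2 and 15.2 in Tw2_GM and 15.6 and 13.1 in Pax7_GM. All 4 pairs of a listed A-class ephrin and a listed EphA receptor thus fell on both sides in both lineages. For Efna4, Efna5 and Epha1, however, the shared direction was set by the level required of listed genes, as described above.

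In the B class the transmembrane ligand Efnb2 fell, and its receptors moved in different directions. Efnb2 was at 10.8 and 10.96 CPM in the Tw2_48 libraries, against 164 and 159 in Tw2_GM, and at 8.64 and 8.12 in Pax7_48, against 95.8 and 121 in Pax7_GM. The log2 fold changes were −3.78 ± 0.14 in Tw2 cells (adjusted p = 7.45e-08) and −3.53 ± 0.14 in Pax7 cells (adjusted p = 2.67e-07). The receptor Ephb3 rose to 139 and 136 CPM in the Tw2_48 libraries and 111 and 124 in Pax7_48, against 27.8 and 21.3 in Tw2_GM and 21.8 and 17.7 in Pax7_GM. Ephb2 was at 98.0 and 95.2 CPM in the Tw2_48 libraries, against 43.4 and 44.6 in Tw2_GM. In Pax7 cells its libraries also did not overlap, at 52.8 and 53.8 CPM in the Pax7_48 libraries against 41.7 and 35.9 in Pax7_GM, but removal of the GC and length trend left a log2 fold change of 0.06 there (adjusted p = 0.627), against 0.45 without that removal. Ephb4, known as a receptor of Efnb2 on venous endothelium, and Ephb6, whose kinase domain is inactive, fell in both lineages. Ephb4 was at 11.6 and 15.8 CPM in the Tw2_48 libraries and 14.1 and 16.1 in Pax7_48, against 75.2 and 78.6 in Tw2_GM and 80.6 and 61.0 in Pax7_GM.

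Among secreted semaphorins, Sema3b, Sema3c and Sema3d rose at 48 and Sema3a fell. Sema3b was at 42.2 and 35.9 CPM in the Tw2_48 libraries, against 3.78 and 2.48 in Tw2_GM, and at 76.4 and 80.8 in Pax7_48, against 11.1 and 11.0 in Pax7_GM. All 48 libraries lay above all GM libraries, by 3.29 ± 0.17 on the log2 scale in Tw2 cells and 2.72 ± 0.17 in Pax7 cells (adjusted p = 4.50e-07 and 2.04e-06). Sema3c was at 89.2 and 80.7 CPM in the Tw2_48 libraries, against 10.7 and 7.79 in Tw2_GM, and at 31.1 and 33.0 in Pax7_48, against 3.25 and 10.4 in Pax7_GM. Both lineages were without overlap, although the Pax7_GM libraries differed from each other by more than the other pairs. Sema3d was at 47.5 and 52.0 CPM in the Tw2_48 libraries, against 6.16 and 6.20 in Tw2_GM, and at 31.4 and 27.2 in Pax7_48, against 5.83 and 12.5 in Pax7_GM. Sema3a, a repellent of axons that satellite cells are known to secrete in regenerating muscle, was at 37.5 and 32.6 CPM in the Tw2_48 libraries, against 225 and 171 in Tw2_GM, and at 9.49 and 8.38 in Pax7_48, against 16.5 and 36.5 in Pax7_GM. Its log2 fold change was −2.46 ± 0.32 in Tw2 cells (adjusted p = 0.000111) and −1.37 ± 0.32 in Pax7 cells (adjusted p = 0.00400).

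The receptors of these cues divided as well. Plxna2, an A-type plexin, was at 435 and 386 CPM in the Tw2_48 libraries, against 177 and 163 in Tw2_GM, and at 266 and 250 in Pax7_48, against 54.2 and 64.2 in Pax7_GM. It rose in both lineages, by a log2 fold change of 1.26 ± 0.14 in Tw2 cells and 2.11 ± 0.14 in Pax7 cells. Nrp1, the neuropilin that binds class 3 semaphorins and also the growth factor Vegfa, was at 15.3 and 10.9 CPM in the Tw2_48 libraries, against 255 and 243 in Tw2_GM. In Pax7 cells Nrp1 was at 14.0 and 13.9 CPM in the Pax7_48 libraries, against 66.0 and 97.0 in Pax7_GM. In CPM the lineages thus overlapped in Nrp1 at 48 and did not overlap in GM. Plxnb3, a B-type plexin on the X chromosome, rose to 15.5 and 12.03 CPM in the Tw2_48 libraries and 14.6 and 15.7 in Pax7_48, against 0.66 and 0.27 in Tw2_GM and 1.90 and 2.32 in Pax7_GM. With 326 pooled reads in Tw2_48 and 11 in Tw2_GM, its ratio of pooled CPM was 30.1 (95% interval 16.6 to 60.8, counting error only). The sex of the animals is not stated. Plxnd1, the plexin that binds Sema3e directly, fell to 30.4 and 33.2 CPM in the Tw2_48 libraries and 21.8 and 23.6 in Pax7_48, against 53.9 and 60.2 in Tw2_GM and 104 and 93.0 in Pax7_GM.

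Membrane-bound semaphorins were also found on both sides. Sema7a, held by a lipid anchor and known to signal through integrins and Plxnc1, was at 5.32 and 4.47 CPM in the Tw2_48 libraries, against 197 and 196 in Tw2_GM. In Pax7 cells it was at 17.9 and 18.6 CPM in the Pax7_48 libraries, against 167 and 139 in Pax7_GM. The log2 fold change of Sema7a was −5.07 ± 0.14 in Tw2 cells, the largest fall of the 21 cues there, and −2.997 ± 0.14 in Pax7 cells. Sema6d fell and Sema6c rose, though both are transmembrane cues of the same class that bind A-type plexins. Sema6d was at 4.08 and 4.68 CPM in the Tw2_48 libraries and 4.42 and 4.84 in Pax7_48, against 90.3 and 94.1 in Tw2_GM and 40.8 and 52.7 in Pax7_GM. Sema6c was at 64.4 and 61.2 CPM in the Tw2_48 libraries and 59.9 and 61.3 in Pax7_48, against 19.8 and 17.1 in Tw2_GM and 14.2 and 10.4 in Pax7_GM. Of class 4, which binds B-type plexins, Sema4d rose (log2 fold change 1.15 ± 0.14 in Tw2 cells and 1.35 ± 0.14 in Pax7 cells). Sema4b and Sema4c fell in both lineages, with log2 fold changes between −1.24 and −0.45. The fall of Sema4b in Pax7 cells was not called under size factors or quantile normalization (−0.22 under each). That of Sema4c in Tw2 cells was not called under size factors (−0.42, limma adjusted p = 0.0507).

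Netrin receptors fell while the netrins themselves parted. Unc5b was at 43.6 and 46.0 CPM in the Tw2_48 libraries, against 720 and 833 in Tw2_GM, and at 41.1 and 43.1 in Pax7_48, against 821 and 729 in Pax7_GM. The lineages overlapped in GM and lay close at 48, and the log2 fold change was −4.08 ± 0.14 in Tw2 cells (adjusted p = 4.17e-08) and −4.17 ± 0.14 in Pax7 cells (adjusted p = 1.98e-07). Neo1, neogenin, which reads both netrins and Rgm proteins, was at 133 and 120 CPM in the Tw2_48 libraries, against 371 and 404 in Tw2_GM, and at 66.6 and 70.4 in Pax7_48, against 123 and 133 in Pax7_GM. Ntn4, a netrin with laminin-like domains that is deposited in basement membranes, was at 2.33 and 2.13 CPM in the Tw2_48 libraries and 8.36 and 7.86 in Pax7_48, against 70.9 and 61.7 in Tw2_GM and 59.9 and 70.2 in Pax7_GM. Ntn1, the classical secreted netrin, was called in neither lineage, at 76.8 and 70.2 CPM in the Tw2_48 libraries and 31.7 and 30.9 in Pax7_48, against 93.7 and 82.2 in Tw2_GM and 28.3 and 26.4 in Pax7_GM. Under size factors, however, Ntn1 was called higher in Pax7 cells, and with the trend removed it was called lower in Tw2 cells.

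The 2 repulsive guidance molecules, lipid-anchored ligands of Neo1 that are also co-receptors for bone morphogenetic proteins, both rose. Rgma was at 57.2 and 56.8 CPM in the Tw2_48 libraries and 61.3 and 59.2 in Pax7_48, against 6.24 and 5.05 in Tw2_GM and 8.13 and 5.21 in Pax7_GM. Rgma rose by a log2 fold change of 3.13 ± 0.19 in Tw2 cells and 3.02 ± 0.19 in Pax7 cells (adjusted p = 1.11e-06 and 2.01e-06). Rgmb was at 102 and 97.7 CPM in the Tw2_48 libraries and 68.3 and 68.3 in Pax7_48, against 35.2 and 29.2 in Tw2_GM and 38.3 and 36.7 in Pax7_GM. Robo1, the receptor of Slit proteins, fell to 38.2 and 38.2 CPM in the Tw2_48 libraries and 15.2 and 14.8 in Pax7_48, against 164 and 138 in Tw2_GM and 49.99 and 63.5 in Pax7_GM. No Slit gene was listed.

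The 3 mediators held the largest change in each direction among the members. Dpysl3 was at 21.2 and 22.8 CPM in the Tw2_48 libraries, against 1186 and 1228 in Tw2_GM, and at 22.5 and 21.2 in Pax7_48, against 499 and 536 in Pax7_GM. Its log2 fold change was −5.72 ± 0.12 in Tw2 cells (adjusted p = 1.45e-08) and −4.50 ± 0.12 in Pax7 cells (adjusted p = 1.98e-07), and the 48 libraries of the lineages overlapped. Dpysl5 was at 30.7 and 28.4 CPM in the Tw2_48 libraries and 41.9 and 31.8 in Pax7_48, against 0.25 and 0 in Tw2_GM and 0.95 and 1.54 in Pax7_GM. Tw2_GM held 3 reads of Dpysl5 in all, against 689 in Tw2_48, so that the ratio of pooled CPM was 233 with a 95% interval of 79.4 to 1133 (counting error only). The log2 fold change of 4.77 ± 0.20 on the log2(CPM + 1) scale understates that ratio. Dpysl2 fell to 13.0 and 11.1 CPM in the Tw2_48 libraries and 4.70 and 4.32 in Pax7_48, against 44.4 and 44.8 in Tw2_GM and 20.2 and 19.9 in Pax7_GM.

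**Figure D2:**
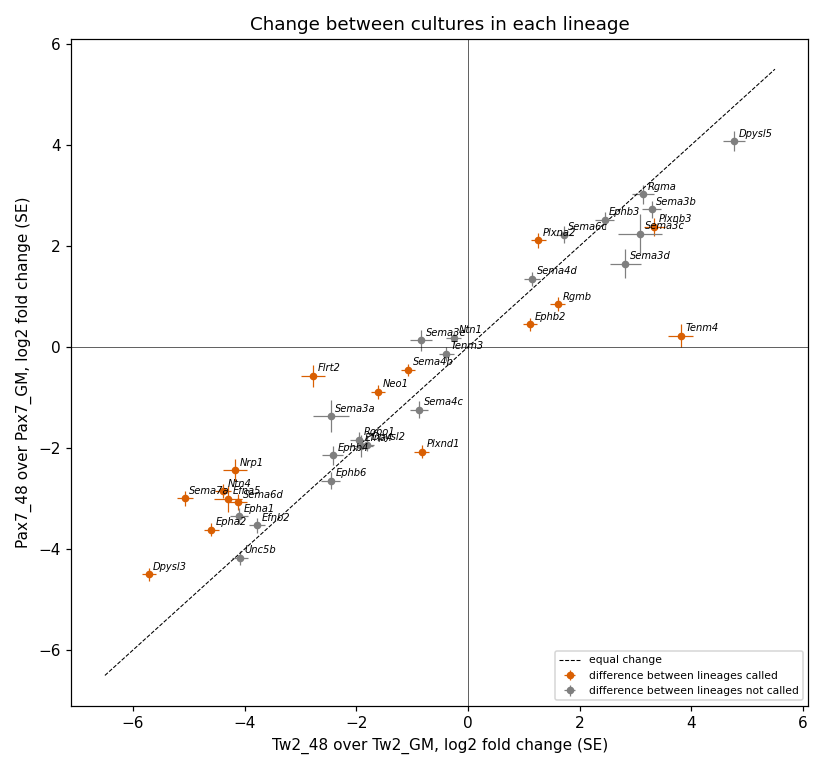
Log2 fold change of 48 over GM in Tw2 cells plotted against that in Pax7 cells for the 37 members, with SE bars on both axes. Points in orange are the 16 members whose change differed between the lineages by the test of that difference, and Tenm4 lies farthest from the diagonal.

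The second comparison set Tw2 cells against Pax7 cells within a culture. In GM, the secreted cues Sema3a, Sema3e and Ntn1, the membrane cues Flrt2, Efna5, Tenm3 and Sema6d, and the receptors Nrp1, Neo1, Plxna2 and Robo1 were higher in Tw2 cells, while Sema3b, Sema4d, Tenm4, Ephb6, Plxnb3 and Plxnd1 were lower. Of the 37 members, 17 were higher and 7 lower in Tw2_GM, where 74.7% of all tested genes were called (48.7% higher and 26.0% lower). At 48, 15 members were higher and 7 lower in Tw2_48, where 65.4% were called (43.3% higher and 22.1% lower). The split depended on scaling: it was 10 higher and 21 lower in GM and 7 and 18 at 48 under size factors, and 13 and 13 in GM and 11 and 11 at 48 under quantile normalization. With the GC and length trend removed it was 27 and 8 in GM and 19 and 6 at 48. In that order, these scalings moved the median of all tested genes by −0.84, −0.48 and 0.20 in GM and by −0.63, −0.29 and 0.04 at 48. Over 5431 genes the log2 fold change in GM had a Spearman correlation of −0.69 with the GC content of the transcript, and one of −0.61 at 48. Over the 37 members these were −0.49 and −0.47, as a description of genes measured in the same libraries. Therefore the genes described next are those called with all 3 scalings, 15 of 24 in GM and 12 of 22 at 48, unless stated otherwise.

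Called higher in both cultures were 9 members (37.0% of all genes), and Flrt2, Ntn1, Robo1, Sema3a and Tenm3 were so with all 3 scalings. Flrt2, a membrane protein that repels axons bearing Unc5 receptors, was at 47.5 and 39.5 CPM in the Tw2_48 libraries, against 13.1 and 13.2 in Pax7_48, and at 301 and 302 in Tw2_GM, against 15.6 and 25.5 in Pax7_GM. No libraries overlapped. Its log2 fold change was 1.65 ± 0.21 at 48 (adjusted p = 0.000787) and 3.85 ± 0.21 in GM (adjusted p = 8.29e-06). With the trend removed these were 0.73 and 2.47. For Sema3a, whose levels are given above, the values were 1.86 ± 0.32 at 48 (adjusted p = 0.00208) and 2.94 ± 0.32 in GM (adjusted p = 0.000137), or 0.93 and 1.51 with the trend removed. Ntn1 was higher by 1.21 ± 0.13 at 48 (adjusted p = 0.000401) and 1.65 ± 0.13 in GM (adjusted p = 4.39e-05), and its values with the trend removed were larger, at 1.48 and 2.21.

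Robo1 was higher by 1.29 ± 0.16 at 48 and 1.40 ± 0.16 in GM. Tenm3, a teneurin that binds latrophilins across cell contacts, was at 34.0 and 32.2 CPM in the Tw2_48 libraries, against 14.4 and 11.9 in Pax7_48, and at 43.2 and 43.8 in Tw2_GM, against 14.4 and 14.7 in Pax7_GM. The Tw2 libraries lay above the Pax7 libraries in both cultures, with log2 fold changes of 1.28 ± 0.13 at 48 (adjusted p = 0.000347) and 1.52 ± 0.13 in GM (adjusted p = 6.74e-05). The other 4 called in both cultures were Plxna2, Neo1, Sema3e and Dpysl2, each of which missed the threshold under at least 1 scaling in 1 culture. Sema3e, the ligand of Plxnd1, was at 270 and 239 CPM in the Tw2_48 libraries, against 153 and 137 in Pax7_48, and at 499 and 416 in Tw2_GM, against 108 and 161 in Pax7_GM. With the trend removed, its log2 fold change of 0.81 at 48 became −0.08 and that of 1.78 in GM became 0.44.

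Called lower in both cultures were 3 members (14.7% of all genes), and of these Ephb6 and Sema4d were so with all 3 scalings. Ephb6 was at 5.53 and 7.66 CPM in the Tw2_48 libraries, against 21.9 and 22.4 in Pax7_48, and at 39.1 and 41.3 in Tw2_GM, against 157 and 131 in Pax7_GM. The log2 fold change of Ephb6 was −1.62 ± 0.17 at 48 (adjusted p = 0.000338) and −1.81 ± 0.17 in GM (adjusted p = 8.13e-05). Sema4d, a semaphorin known from immune cells and bone as well as from axons, was at 16.3 and 18.7 CPM in the Tw2_48 libraries, against 45.4 and 48.7 in Pax7_48, and at 7.56 and 7.08 in Tw2_GM, against 19.2 and 16.6 in Pax7_GM. The libraries did not overlap in either culture, with log2 fold changes of −1.38 ± 0.14 at 48 and −1.18 ± 0.14 in GM. Sema3b was lower, at −0.99 ± 0.17 at 48 and −1.56 ± 0.17 in GM, but at 48 its value with the trend removed was −0.47 (adjusted p = 0.0683).

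In 1 culture alone, 9 members were called in GM (19.8% of all genes) and 7 at 48 (10.5%), and 6 were called in neither (14.8%; Efna4, Ephb3, Ephb4, Rgma, Sema4c and Unc5b). All 6 were, however, called lower in Tw2_GM under size factors and higher there with the trend removed. For Unc5b the GM values were −0.87 and 0.55, so the sign of these differences depends on scaling. In GM, Nrp1 was higher by 1.62 ± 0.21 (adjusted p = 0.000264) and Dpysl3 by 1.22 ± 0.12 (adjusted p = 0.000109), both with all 3 scalings. That neither was called at 48 depended on scaling. Under size factors both were called lower in Tw2_48, at −0.72 for Nrp1 and −0.63 for Dpysl3. With the trend removed their 48 values were −0.72 and 0.11, and under quantile normalization −0.46 and −0.37. At 48, Ntn4 was lower, at −1.50 ± 0.14 (adjusted p = 0.000225) and Epha2 by −0.92 ± 0.13 (adjusted p = 0.00104), both with all 3 scalings. Epha1 was lower, at −0.65 ± 0.16 at 48, but with the trend removed its value was −0.12 (adjusted p = 0.533). Sema3c was higher by 1.38 ± 0.39 at 48, and with the trend removed its value was 0.64 (adjusted p = 0.0592). Called in opposite directions were 3 members (3.28% of all genes). Tenm4, a teneurin known from oligodendrocyte differentiation, was at 46.7 and 36.8 CPM in the Tw2_48 libraries, against 14.0 and 12.8 in Pax7_48, and at 2.79 and 1.42 in Tw2_GM, against 10.6 and 12.2 in Pax7_GM. Of the 4 groups, Tenm4 was thus highest in Tw2_48 and lowest in Tw2_GM, with log2 fold changes of 1.56 ± 0.22 (adjusted p = 0.00112) and −2.03 ± 0.22 (adjusted p = 0.000144), both called with all 3 scalings. Sema7a was lower, at −1.71 ± 0.14 at 48 with all 3 scalings, while its GM value of 0.36 turned to −0.51 under size factors. Plxnd1 was lower, at −0.78 ± 0.14 in GM with all 3 scalings, while its 48 value of 0.47 turned to −0.17 under size factors.

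**Figure D3:**
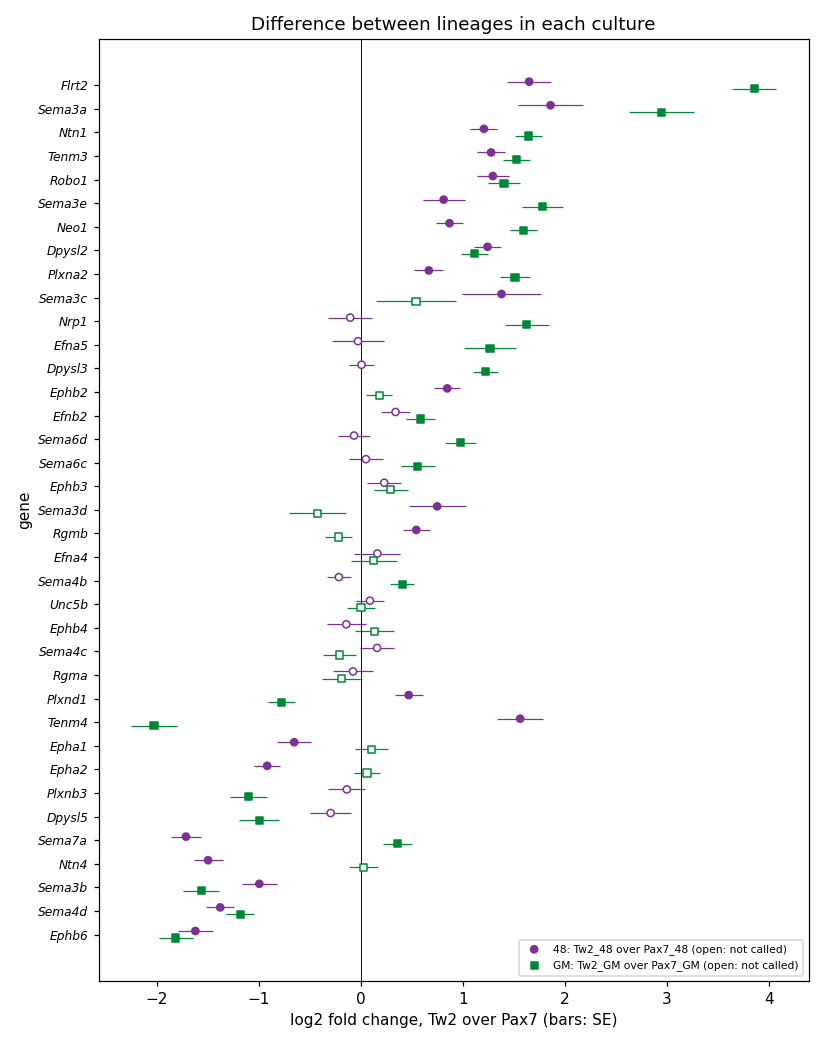
Log2 fold change of Tw2 over Pax7 cells with SE for each of the 37 members at 48 (circles) and in GM (squares), with open symbols where the test was not passed. Flrt2 and Sema3a lie farthest to the right in GM, and the 2 symbols of Tenm4 lie on opposite sides of 0.

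The third comparison asked whether the change between GM and 48 differed between the lineages. It did for 16 of the 37 members, 5 with a higher and 11 with a lower value in Tw2 cells, where 18.7% of all tested genes were called (9.72% higher and 9.01% lower). The split was 4 and 6 under size factors, 4 and 7 under quantile normalization and 5 and 16 with the trend removed. Over all tested genes it was 530 and 491 with the deposited scaling, then 656 and 223, 690 and 459, and 606 and 1155 in the same order. With all 3 scalings 9 were called (Tenm4, Plxnd1, Rgmb, Flrt2, Sema7a, Nrp1, Ntn4, Dpysl3 and Epha2). The number called depended on single libraries: it was 7 without the shallower Tw2_GM or the shallower Tw2_48 library, 8 without the deeper Tw2_48 or the deeper Pax7_48 library, and 9 without the deeper Tw2_GM or the shallower Pax7_48 library. Without either Pax7_GM library it was 22.

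Tenm4 gave the largest of these differences, 3.59 ± 0.32 (adjusted p = 0.000333). Its log2 fold change was 3.81 ± 0.22 in Tw2 cells, whereas its change in Pax7 cells was not called with the deposited scaling. Under quantile normalization that change in Pax7 cells was called higher, at 0.54 (limma adjusted p = 0.0203). Plxnd1 fell less in Tw2 cells, with a difference of 1.25 ± 0.19 (adjusted p = 0.00392). Rgmb rose more in Tw2 cells, by 0.76 ± 0.19 (adjusted p = 0.0282). The other 6 fell further in Tw2 cells. Their differences were −2.21 ± 0.30 for Flrt2, −2.07 ± 0.20 for Sema7a, −1.73 ± 0.30 for Nrp1, −1.52 ± 0.20 for Ntn4, −1.21 ± 0.18 for Dpysl3 and −0.98 ± 0.18 for Epha2 (adjusted p from 0.000532 to 0.00901). With the deposited scaling, the lineages differed most in GM for Flrt2, Nrp1 and Dpysl3. They differed most at 48 for Sema7a, Ntn4 and Epha2, where the Tw2 libraries were the lower ones. This order depended on scaling. Under size factors the log2 fold change of Tw2 over Pax7 for Dpysl3 was 0.35 in GM and −0.63 at 48. With the trend removed, it was 0.605 in GM and −0.72 at 48 for Nrp1. For Epha2 these values were 0.85 and −0.45, and for Sema7a 1.24 and −1.17.

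Cues were set beside receptors by family, which gave 33 pairs in which both genes were listed. The pairs were class 3 semaphorins with Nrp1 and A-type plexins, class 4 with B-type plexins and Plxnd1, class 6 with A-type plexins, netrins with Unc5b and Neo1, ephrins with Eph receptors of their class, Flrt2 with Unc5b, and Rgm proteins with Neo1. The cue and the receptor had their highest mean in the same group in 17 pairs, 12 of them in Tw2_GM. In that group 21 members had their highest mean, and the table was selected on it, so no matching of partners can be read from this. Between GM and 48 both partners fell in 13 pairs and both rose in 5 in Tw2 cells, and the partners moved in opposite directions in 13. In Pax7 cells both fell in 12 pairs, both rose in 5 and 12 moved in opposite directions. With both partners called under all 3 scalings, 11 pairs fell, 5 rose and 11 were opposite in Tw2 cells. In Pax7 cells these were 10, 5 and 10. The pairs share members, since Plxna2 alone stands in 7 of them, so these counts are not independent. The family rule leaves out Sema3e with Plxnd1. In a pairing added after the data were seen, with Sema3e as the cue of Plxnd1 in place of class 4, 31 pairs remained, of which 12 fell and 5 rose on both sides in Tw2 cells, and 10 fell and 5 rose in Pax7 cells. Sema3e and Plxnd1 both fell in Tw2 cells, but under size factors the fall of Sema3e was −0.38 and was not called (limma adjusted p = 0.0860).

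Pairs that rose together in both lineages were Plxna2 with Sema3b, Sema3c, Sema3d and Sema6c, and Plxnb3 with Sema4d. Pairs that fell together in both included the 4 of EphA receptors with A-class ephrins, Unc5b with Ntn4 and Flrt2, Neo1 with Ntn4, and Nrp1 with Sema3a. The fall of Flrt2 in Pax7 cells, a log2 fold change of −0.57 ± 0.21, was not called under size factors or quantile normalization. In opposite directions went Nrp1, which fell, and Sema3b, Sema3c and Sema3d, which rose. Neo1 fell while Rgma and Rgmb rose, and Efnb2 fell while Ephb2 and Ephb3 rose. The shared directions of Plxnb3, Rgma, Efna4, Efna5, Epha1 and Ntn4 were set by the level required of listed genes. No matching of partners can therefore be read from their pairs.

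Between the lineages, both partners were higher in Tw2_48 in 6 of the 33 pairs and lower in 0, but with all 3 scalings there was no pair of which both partners were called at 48. In GM both partners were higher in Tw2_GM in 7 pairs and lower in 2, and 5 went in opposite directions. With all 3 scalings both partners were higher in Tw2_GM in 5 pairs, which were Sema3a and Sema3e each with Nrp1 and with Plxna2, and Ntn1 with Neo1. Sema3b, lower in Tw2_GM with all 3 scalings, went against Nrp1 and Plxna2 there. Sema3e and Plxnd1 also went in opposite directions in GM with all 3 scalings, the cue being higher and the receptor lower in Tw2_GM.

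**Figure D4:**
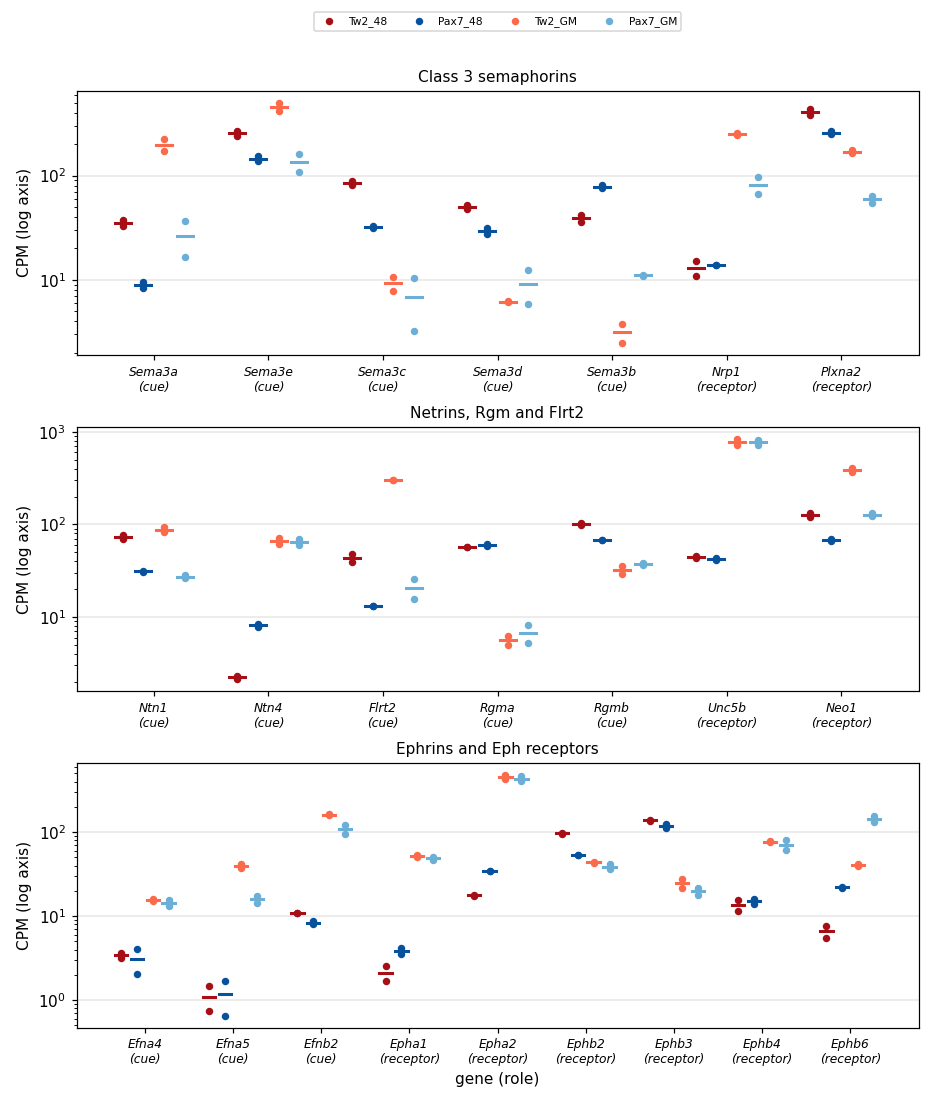
CPM on a log axis in each of the 8 libraries for class 3 semaphorins with Nrp1 and Plxna2 (top), netrins, Rgm proteins and Flrt2 with Unc5b and Neo1 (middle), and ephrins with Eph receptors (bottom). Points are libraries, coloured by group, and bars are the means of 2 libraries. Rgma lies higher at 48 (57.2 and 56.8 CPM in the Tw2_48 libraries) than in GM while Neo1 lies lower within each lineage, and the EphA receptors and their ligands lie lower at 48.

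Sema3d, Sema3a, Sema3e and Sema3c lie on 1 stretch of chromosome 5 (GRCm38, 12383385 to 17730268, from the start of Sema3d to the end of Sema3c). The 4 neighbours did not move as 1 block. Sema3c and Sema3d rose at 48 in both lineages, and Sema3a fell in both. Sema3e fell by 0.84 ± 0.20 on the log2 scale in Tw2 cells (adjusted p = 0.00467) and was not called in Pax7 cells. Under size factors its log2 fold change in Tw2 cells was −0.38 and was not called. Their transcripts were among the poorest in GC of the members, from 39.2% for Sema3d to 42.7% for Sema3c, against a member median of 53.4%. With the trend removed, the difference of Sema3d at 48 was −0.31, against 0.75 without that removal. Sema3b, on chromosome 9, was the only one of the 5 listed class 3 semaphorins called lower in Tw2 cells in both cultures.

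Of 85 other gene symbols of guidance signalling, which include 2 names for each latrophilin, 46 were listed. In Tw2 cells 20 rose and 20 fell at 48, where 35.3% of all genes were called higher and 48.9% lower, and their median log2 fold change was −0.29, against −0.49 over all genes. In Pax7 cells 20 rose and 18 fell, beside 38.8% and 40.5% of all genes, and the median was 0.13, against 0.01. Ablim3, which links guidance receptors to actin, was at 554 and 516 CPM in the Tw2_48 libraries, against 1.40 and 2.30 in Tw2_GM, and at 806 and 859 in Pax7_48, against 43.2 and 41.3 in Pax7_GM. Cxcl12, a chemokine that guides migrating cells, was at 1.89 and 3.41 CPM in the Tw2_48 libraries and 18.6 and 17.2 in Pax7_48, against 486 and 427 in Tw2_GM and 442 and 425 in Pax7_GM. Ptprf, a receptor phosphatase, rose in both lineages, with a log2 fold change of 5.57 ± 0.19 in Tw2 cells and 3.57 ± 0.19 in Pax7 cells. Between the lineages, 26 of the 46 were higher and 5 lower in Tw2_48 (43.3% and 22.1% of all genes; median 0.54, against 0.27 over all genes), and 20 were higher and 7 lower in Tw2_GM (48.7% and 26.0%; median 0.28, against 0.34). This split turned under size factors, to 9 higher and 16 lower in Tw2_48 and 11 and 28 in Tw2_GM, and was 17 and 9 in Tw2_48 and 13 and 14 in Tw2_GM under quantile normalization. Over all tested genes the split under size factors was 945 and 2631 in Tw2_48 and 1393 and 2940 in Tw2_GM. Under quantile normalization it was 1606 and 1715 in Tw2_48 and 1973 and 2208 in Tw2_GM. Rock1 and Rock2, kinases that act on myosin below several guidance receptors, and Rasa1, a Ras inhibitor that binds EphB receptors, were among those higher in Tw2_GM, with log2 fold changes of 3.08 ± 0.37, 2.98 ± 0.36 and 3.08 ± 0.36. With the trend removed these were 1.56, 1.53 and 1.93. The Pax7_GM libraries stood apart, at 5.28 and 14.3 CPM for Rock1, 21.7 and 53.4 for Rock2 and 53.5 and 137 for Rasa1. Those of Tw2_GM were at 97.9 and 68.5, 327 and 233, and 813 and 662 CPM in the same order.

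Latrophilins, the receptors of teneurins and Flrt proteins, were all 3 listed, as Lphn1, Lphn2 and Lphn3. Lphn3 rose at 48 in both lineages, to 84.3 and 73.2 CPM in the Tw2_48 libraries and 36.7 and 35.0 in Pax7_48, against 21.6 and 19.3 in Tw2_GM and 14.2 and 21.0 in Pax7_GM. Lphn1 fell in both, to 34.2 and 30.4 CPM in the Tw2_48 libraries and 30.2 and 31.7 in Pax7_48, against 97.6 and 90.5 in Tw2_GM and 71.3 and 69.8 in Pax7_GM. Lphn3 was higher in Tw2_48 than in Pax7_48 (1.11 ± 0.19, adjusted p = 0.00199), as were Tenm3 and Tenm4, and in GM the difference of Lphn3 was not called (adjusted p = 0.302).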

How the data were processed

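RNA was sequenced from 8 libraries, 2 in each of 4 groups assigned from the titles and genotypes. Tools and genome build, per the submitters' processing notes, included DESeq2 1.6.3, TopHat2 2.0.0 and mm10 (GRCm38). Their roles, the counting tool and the annotation are not given in the sources used here. The authors deposited, per the file headers, the mean CPM of each group and the log2 fold change of 3 groups over Tw2_GM, with a status value of 1 for each of 5457 genes.

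Whole reads of the 2 libraries were solved from every deposited mean CPM, within 1.1 times its rounding error. All 4 groups had a single solution for 5452 genes, all 37 members among them, and the method was tested on simulated data. The deposited means carry no replicate numbers. Depth was 5.18 to 13.7 M reads per library, and 95% intervals of ratios of pooled reads are exact binomial intervals.

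CPM values need no count model, so log2(CPM + 1) was fitted with limma 3.58.1 (R 4.3.3) in all 8 libraries, 1 mean for each group, and moderated by eBayes without trend (4 residual and 4.02 prior degrees of freedom). The spread is thus pooled over the groups. P-values were adjusted by Benjamini-Hochberg over 5452 genes within each of 5 comparisons, and 0.05 was the threshold of a call. Fold changes on this scale understate changes of genes near 1 CPM. Alternatives were size factors, quantile normalization, removal of a spline trend (4 degrees of freedom) in GC content and length over 5431 genes, pseudocounts of 0.25 and 5, a filter at a mean of 10 CPM (5298 genes), voom weights on the solved reads, fits of only the compared groups, and leaving out each library. Pairs of cues and receptors were also counted with Plxnd1 joined to Sema3e, chosen after seeing the data. Positions, lengths and GC content come from GENCODE vM21 (GRCm38), promoters from RefSeq.

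Full statistics are given for up to 10 called members with the largest change per comparison and for cues and receptors of listed pairs, and up to 4 genes per comparison are named from the other lists. The members, lists and pairs were chosen with earlier results of these data known. Genes outside the deposited table were not analysed here.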

Additional observations from a re-analysis of the deposited data

Results flagged for a closer look

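The change between GM and 48 differed between the lineages for 16 members by the limma test of the difference itself (adjusted p under 0.05 over all tested genes). The difference of log2 fold changes, Tw2 minus Pax7, was 3.59 for Tenm4, 1.25 for Plxnd1, 0.96 for Plxnb3, 0.76 for Rgmb and 0.67 for Ephb2. It was −2.21 for Flrt2, −2.07 for Sema7a, −1.73 for Nrp1, −1.52 for Ntn4, −1.29 for Efna5, −1.21 for Dpysl3, −1.04 for Sema6d, −0.98 for Epha2, −0.84 for Plxna2, −0.72 for Neo1 and −0.62 for Sema4b. Of these, 9 were called with all 3 scalings. Plxnb3, Ephb2, Efna5, Sema6d, Plxna2, Neo1 and Sema4b each missed the threshold under at least 1 of them. Efna5 and Plxnb3 rest on levels near 1 CPM in 1 culture, at 1.46 and 0.74 CPM in Tw2_48 for Efna5 and 0.66 and 0.27 CPM in Tw2_GM for Plxnb3, where the pseudocount bears on the value.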

How the results depend on the processing

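Over the 5 comparisons, 131 member values were called, and 97 of them kept their direction and their side of the threshold under every alternative run. Another 34 missed the threshold under at least 1 alternative, and 10 changed sign under at least 1. Under size factors the log2 fold change turned for Tw2_GM over Pax7_GM to −0.26 for Sema6c, −0.43 for Sema4b, −0.28 for Efnb2 and −0.51 for Sema7a. It also turned for Tw2_48 over Pax7_48 to −0.11 for Rgmb and −0.17 for Plxnd1, and for Tw2_48 over Tw2_GM to 0.065 for Tenm3. Under quantile normalization it turned to −0.14 for Sema4b and −0.12 for Sema7a in Tw2_GM over Pax7_GM, and the difference of changes of Plxnb3 turned to −0.16. With the GC and length trend removed, Tw2_48 over Pax7_48 turned to −0.31 for Sema3d and −0.077 for Sema3e. The cause was not tested.

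The number of members with a different change between the lineages, 16, was 10 under size factors and ran from 7 to 22 when 1 library was left out. Over all tested genes the number moved less under size factors, from 1021 to 879, and it also moved with the library left out. A group left with 1 library is assumed to vary like the others. The numbers called for the other comparisons stayed within 1.5 times under every alternative, from 16 to 23 with 1 library left out for Tw2_48 over Pax7_48 and from 21 to 26 for Tw2_GM over Pax7_GM. With Plxnd1 joined to Sema3e, the pairs lower on both sides in Tw2_GM were 1, against 2 with class 4. No paired analysis was possible because the deposited columns are group means with no replicate numbers. With 2 libraries a group, levels under about 0.6 CPM rest on fewer than 3 reads in the shallowest library.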
